A study of Mus musculus with 2 samples.

Results

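Retinoic acid synthesis and breakdown enzymes were described from 8 genes, Rdh10, Dhrs3, Aldh1a1, Aldh1a2, Aldh1a3, Cyp26a1, Cyp26b1 and Cyp26c1, of 43346 Ensembl genes in the deposited tables, together with their 20 annotated transcripts. The genes were chosen by symbol and not by a measured value, though with earlier results of these data known. Total RNA above 200 nt was sequenced from the tissue of the embryonic face, the facial prominence, of B6NCrl mice at 10.5 days of development. The study held 1 group of 2 biological replicates, and the tissue of 51 embryos was pooled for replicate 2 and that of 69 embryos for replicate 1. Male and female embryos were mixed in both pools, and each library was started from 10 ng of RNA. With 1 group there was no contrast between conditions and no p-value, so every result below describes these 2 libraries and the spread between them.

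Retinoic acid is made from vitamin A in a pair of steps. Retinol is first oxidised to retinal, chiefly by Rdh10 in the embryo, while Dhrs3 reduces retinal back to retinol. The Aldh1a enzymes then oxidise retinal to retinoic acid, which enters the nucleus and binds receptors of the Rar and Rxr families. The Cyp26 enzymes, cytochrome P450s, hydroxylate retinoic acid and so start its breakdown. In the embryonic head, Aldh1a3 is known from the surface ectoderm around the eye and nose, Aldh1a1 from the dorsal retina, and Cyp26b1 and Cyp26c1 from the hindbrain and nearby tissue. Too much or too little retinoic acid disturbs growth and fusion of the facial prominences.

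Replicate 2 held 39531700 expected counts in genes and replicate 1 held 40059176, and spike-in controls and other entries held 3.94% of all counts in replicate 2 and 3.46% in replicate 1. Sampling noise was smaller than the difference between the libraries (chi-square per degree of freedom 8.93 over 17567 genes), which were kept as 2 samples. Marker lists were set beside the tissue label. Detection, at least 1 TPM in both libraries, does not test that label. It was reached by 58.2% of protein coding genes, and by all 6 nasal placode and all 5 cranial ganglion markers. All 10 facial mesenchyme markers were detected, and their summed level was 741 TPM in replicate 2 and 780 TPM in replicate 1, with Msx1 the highest and Alx4 the lowest. All 8 facial ectoderm markers were detected too, with Krt18 the highest and Grhl3 the lowest, at a summed 293 TPM and 290 TPM in replicates 2 and 1. Levels are given as TPM, a share of all transcripts that is adjusted for transcript length. Values of bulk tissue cannot tell fewer cells of a type from less RNA per cell.

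All 8 enzyme genes were detected, that is, they reached at least 1 TPM in both libraries, as did 58.2% of 21474 protein coding genes. Their levels ran between 2.99 and 39.3 TPM per library. The median of their mean levels was 7.89 TPM, against 20.1 TPM over the 12494 detected protein coding genes. By mean level the order was Aldh1a3, Dhrs3, Cyp26a1, Cyp26b1, Rdh10, Aldh1a1, Aldh1a2 and Cyp26c1. Aldh1a3 and Cyp26c1 thus stood at the ends of the range, with 65.6% and 16.9% of detected protein coding genes below them.

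**Figure D1:**
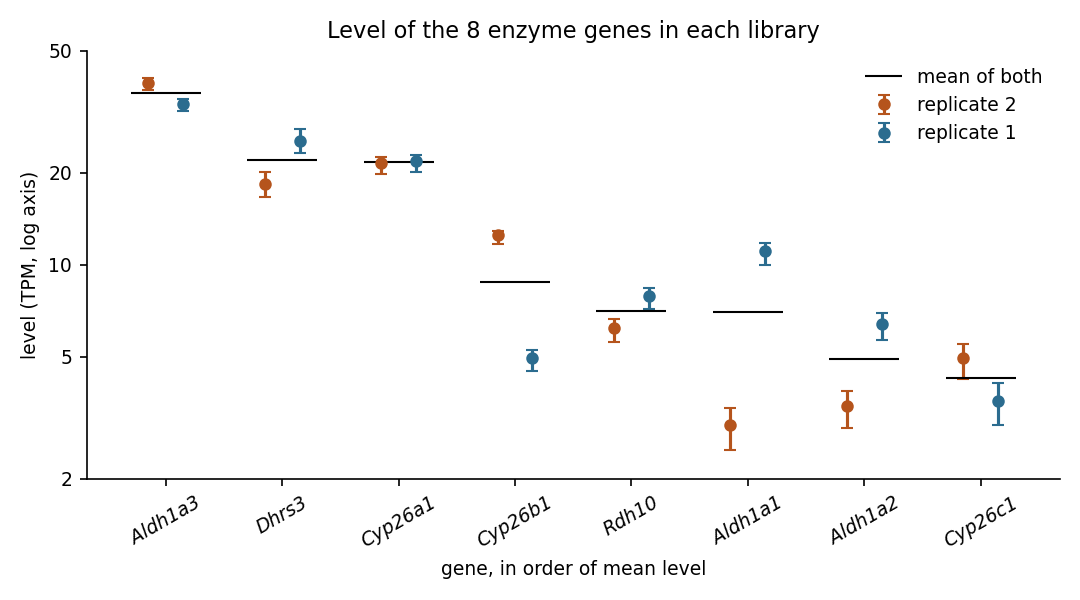
Level of each enzyme gene in TPM on a log axis. Points are libraries, with replicate 2 left of replicate 1; vertical bars are the bounds the authors deposited with each value, and black lines are means of both libraries. The points of Cyp26a1 lie together at 21.5 and 21.9 TPM, whereas those of Aldh1a1 lie apart at 2.99 and 11.1 TPM.

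The retinal-forming dehydrogenase Rdh10 (ENSMUSG00000025921, chr1:16105774-16133734, plus strand, mm10) had 6.20 TPM in replicate 2 and 7.87 TPM in replicate 1, from 553 and 711 counts in those libraries. Its opponent Dhrs3 (ENSMUSG00000066026, chr4:144892827-144928209, plus strand), which returns retinal to retinol, had 18.4 TPM in replicate 2 and 25.4 TPM in replicate 1, from 708 and 1006 counts. Both genes were lower in replicate 2. The mean levels were 7.04 ± 1.18 TPM for Rdh10 and 21.9 ± 4.98 TPM for Dhrs3 (SD, n = 2 each). Rdh10 had 0.337 of the TPM of Dhrs3 in replicate 2 and 0.309 in replicate 1, so this ratio moved little although each gene moved. The mean log2 difference of Dhrs3 over Rdh10 was 1.62, with an interval of 1.29 to 1.94. Such an interval takes the normal multiplier of the standard error to each side, from the pair's own SD or the pooled SD of the 200 genes of most similar level, whichever is larger, on log2(TPM + 0.1). A pair was said to lie apart by the narrow interval where it left out 0 and both libraries gave the same sign. The pair's own SD was the larger in 24 of the 28 pairs of enzyme genes. Coverage where the pooled SD was used, as for Dhrs3 over Rdh10 (0.233 against its own 0.089), was not tested. An SD of 2 libraries has 1 degree of freedom and would need a multiplier of 12.7. Those 24 intervals are therefore too narrow to cover 95%. With that multiplier and the pair's own SD, a stricter rule chosen after seeing the data, 2 of the 28 pairs lay apart. They were Dhrs3 over Rdh10 and Aldh1a3 over Cyp26c1, both with an own SD below the pooled SD.

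Among the retinal dehydrogenases, Aldh1a3 carried most of the RNA in both libraries. Aldh1a3 (ENSMUSG00000015134, chr7:66390890-66427517, minus strand) had 39.3 TPM in replicate 2 and 33.5 TPM in replicate 1, a mean of 36.4 ± 4.12 TPM (SD, n = 2), from 2762 and 2441 counts. Aldh1a1 (ENSMUSG00000053279, chr19:20492715-20643465, plus strand) had 2.99 TPM and 11.1 TPM in replicates 2 and 1, a mean of 7.03 ± 5.71 TPM (SD, n = 2), from 154 and 573 counts. Aldh1a2 (ENSMUSG00000013584, chr9:71215789-71296243, plus strand), the main source of retinoic acid in the early trunk, had 3.44 TPM and 6.41 TPM in replicates 2 and 1, a mean of 4.93 ± 2.10 TPM (SD, n = 2), from 196 and 368 counts. Aldh1a3 was the highest of the family in each library, while the order of the other members turned between libraries. Of the summed TPM of the family, Aldh1a3 held 85.9% in replicate 2 and 65.7% in replicate 1. In replicate 2, Aldh1a1 held 6.54% and Aldh1a2 held 7.53%, and in replicate 1 they held 21.7% and 12.6%. Aldh1a3 exceeded Aldh1a2 by a mean log2 difference of 2.92 (interval 1.83 to 4.01) and Aldh1a1 by 2.63 (0.59 to 4.67), which sets both pairs apart by the narrow interval and neither by the stricter rule. Aldh1a1 over Aldh1a2 gave -0.20 in replicate 2 and 0.78 in replicate 1, and was apart by neither rule.

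Of the genes for breakdown, Cyp26a1 was the highest and the steadiest. Cyp26a1 (ENSMUSG00000024987, chr19:37697798-37701536, plus strand) had 21.5 TPM in replicate 2 and 21.9 TPM in replicate 1, a mean of 21.7 ± 0.276 TPM (SD, n = 2), from 947 and 970 counts. Cyp26a1 was the only one of the 8 genes whose deposited TPM bounds overlapped between the libraries. How often such bounds overlap over all genes was not computed, so this is no trait particular to the 8 genes. Cyp26b1 (ENSMUSG00000063415, chr6:84571414-84593908, minus strand) had 12.5 TPM in replicate 2 and 4.96 TPM in replicate 1, a mean of 8.75 ± 5.35 TPM (SD, n = 2), from 1528 and 606 counts. Cyp26c1 (ENSMUSG00000062432, chr19:37685581-37693398, plus strand) had 4.95 TPM and 3.59 TPM in replicates 2 and 1, a mean of 4.27 ± 0.962 TPM (SD, n = 2), from 215 and 157 counts. The order Cyp26a1, Cyp26b1, Cyp26c1 held in both libraries. Cyp26a1 held 55.1% of the family's TPM in replicate 2 and 71.9% in replicate 1. The share of Cyp26b1 was 32.2% in replicate 2 and 16.3% in replicate 1, and that of Cyp26c1 was 12.7% in replicate 2 and 11.8% in replicate 1. On expected counts, which are not adjusted for length and favour the longer Cyp26b1 transcripts, the mean shares were 45.6% for Cyp26a1 and 45.9% for Cyp26b1. All 3 pairs lay apart by the narrow interval and none by the stricter rule, with mean log2 differences of 1.44 (interval 0.13 to 2.76) for Cyp26a1 over Cyp26b1, 2.33 (1.86 to 2.80) for Cyp26a1 over Cyp26c1 and 0.89 (0.04 to 1.74) for Cyp26b1 over Cyp26c1. The lower bounds of the first and the last of these lie close to 0. Cyp26c1 and Cyp26a1 are neighbours on the same strand of chromosome 19, with 4399 bases between them, and their levels differed 4.27-fold in replicate 2 and 5.95-fold in replicate 1.

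Across the whole set, 18 of the 28 possible pairs lay apart by the narrow interval and 2 by the stricter rule, and 20 of the 28 kept the same order in both libraries. Most neighbours in the order changed places. Of the 7 neighbouring pairs, Aldh1a3 over Dhrs3 (mean log2 difference 0.74, interval 0.06 to 1.42) and Cyp26a1 over Cyp26b1 were the 2 apart by the narrow interval, and the other 5 changed order between the libraries. By the stricter rule 0 of the 7 lay apart. Dhrs3 and Cyp26a1 were the closest pair by mean log2 difference, at -0.0018 (interval -0.43 to 0.43), and Dhrs3 was the lower one in replicate 2 and the higher one in replicate 1. Taken alone, with the pooled SD, replicate 2 set 4 neighbouring pairs apart and replicate 1 set 5 apart, not all in the same direction.

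Synthesis and breakdown genes were also set side by side as sums. The summed Aldh1a level was 45.7 TPM in replicate 2 and 50.9 TPM in replicate 1, and the summed Cyp26 level was 39.0 TPM in replicate 2 and 30.4 TPM in replicate 1. The Aldh1a sum was 1.17 times the Cyp26 sum in replicate 2 and 1.67 times in replicate 1, a mean log2 ratio of 0.49 ± 0.36 (SD, n = 2). On all transcripts the Aldh1a sum was thus the higher one in both libraries, by an amount close to the spread between them. With each gene counted by the transcripts of its longest coding sequence alone, the direction turned in replicate 2. The log2 ratio was then -0.27 in replicate 2 (32.2 TPM for Aldh1a, 39.0 TPM for Cyp26) and 0.43 in replicate 1 (40.9 TPM for Aldh1a, 30.4 TPM for Cyp26). These are RNA levels and do not measure enzyme activity.

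The 8 genes were spread more widely between the libraries than the median gene. On expected counts with TMM scaling, 2 of the 8 enzyme genes lay at least 2-fold apart between the libraries. Of all 14118 genes whose mean count reached 50, 1.23% did, and among the 7665 genes with a mean count in the range of the 8 genes, 0.77% did. At 1.5-fold, 3 of the 8 genes were apart, against 4.64% of the 14118. The median absolute log2 ratio was 0.48 over the 8 genes and 0.094 over the 14118. In 7 of the 8 genes the 95% counting interval of the ratio left out 0. The share of all genes whose counting interval does so was not computed, so this count does not set the 8 genes apart. These intervals cover counting error only, and reads without molecular identifiers are not independent molecules.

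**Figure D2:**
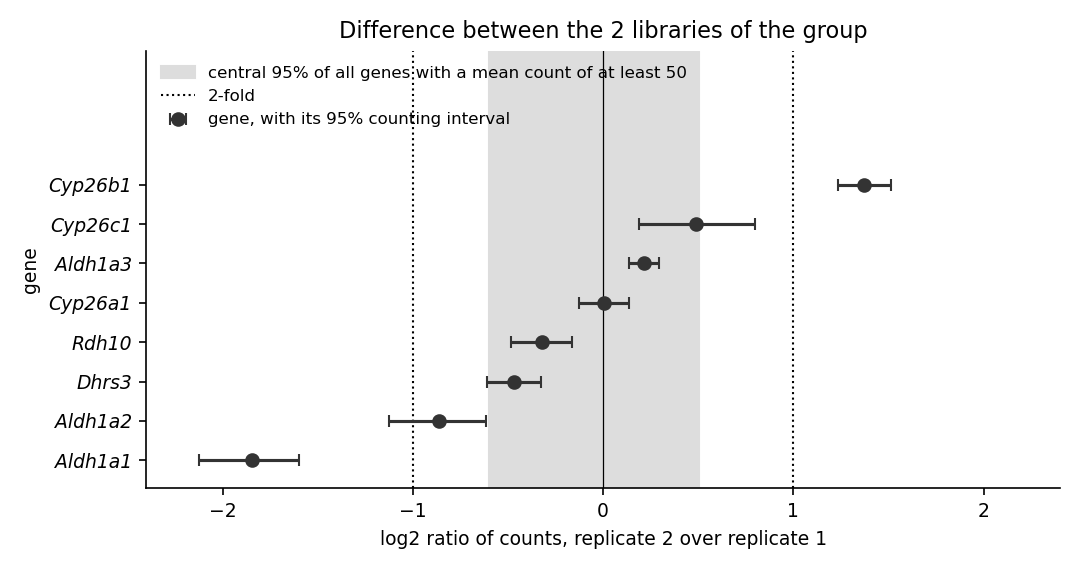
Log2 ratio of counts of replicate 2 over replicate 1 for each enzyme gene, with exact 95% counting intervals. The grey band is the central 95% of 14118 genes, between -0.60 and 0.50, and dotted lines mark 2-fold; Aldh1a1 at -1.84, Aldh1a2 at -0.86 and Cyp26b1 at 1.37 lie outside the band.

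Aldh1a1 was 3.59-fold lower in replicate 2, a log2 ratio of -1.84 (counting interval -2.12 to -1.60), and 0.241% of the 14118 genes were at least as far apart. Aldh1a2 was 1.82-fold lower in replicate 2 (log2 ratio -0.86, interval -1.13 to -0.62), with 1.86% of genes at least as far apart. Cyp26b1 was 2.58-fold higher in replicate 2 (log2 ratio 1.37, interval 1.24 to 1.51), with 0.56% of genes at least as far apart. So 2 synthesis genes were on the low side of the band in replicate 2 and 1 breakdown gene on the high side. Of the rest, Cyp26c1 had a log2 ratio of 0.49, Aldh1a3 of 0.22, Rdh10 of -0.32 and Dhrs3 of -0.47, all inside the central 95% of genes. Cyp26a1 had a log2 ratio of 0.0041 (interval -0.13 to 0.13), and its sign turned with total gene counts, DESeq2 size factors or spike-in counts as the scaling. Scaling by spike-in counts shifted the median of all genes by -0.22, and Aldh1a2 then also passed 2-fold.

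Markers of tissues next to the face moved between the libraries as well, and their part in these results was not tested. Beside the lower Aldh1a1, all 7 eye markers were lower in replicate 2, and their summed level was 24.0 TPM in replicate 2 and 37.3 TPM in replicate 1. Pmel, the highest of them, had 6.93 and 14.6 TPM, and Tyr, the lowest, had 0.40 and 0.86 TPM, in replicates 2 and 1. None of the eye markers was at 0. Aldh1a3, known from the surface ectoderm around the eye, was not lower in replicate 2 (log2 ratio 0.22). Beside the lower Aldh1a2, the 3 of 7 trunk mesoderm markers whose mean count reached 50, led by Tcf15, were all lower in replicate 2, at a summed 12.7 TPM for the list in replicate 2 and 15.6 TPM in replicate 1. Of the other 4, Hoxa5 (9 counts in replicate 2, 2 in replicate 1) and Hoxb6 (4 counts in replicate 2, 0 in replicate 1) were higher in replicate 2, and Hoxc6 and Hoxc8 had 0 counts in both libraries.

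Beside the higher Cyp26b1, all 6 hindbrain markers were higher in replicate 2, with a summed 40.3 TPM in replicate 2 and 15.6 TPM in replicate 1. Hoxb1, Hoxb2, Hoxa3 and Hoxb3 were the 4 at least 2-fold higher. Hoxa2, the highest marker of that list, had 14.6 and 7.73 TPM, and Egr2, the lowest, had 0.94 and 0.76 TPM, in replicates 2 and 1, so none was at 0. Heart markers summed to 30.5 TPM in replicate 2 and 8.13 TPM in replicate 1. Of the 7, the 5 whose mean count reached 50 were all higher in replicate 2, of which Myl7, Myh7, Tnnt2 and Myh6 were at least 2-fold higher. The other 2 were lower in replicate 2, Nkx2-5 at 0.40 TPM in replicate 2 and 0.64 TPM in replicate 1, and Nppa, the lowest of the list, at 0.09 TPM in replicate 2 and 0.17 TPM in replicate 1. The 5 cranial ganglion markers, with Tubb3 the highest, summed to 334 TPM in replicate 2 and 337 TPM in replicate 1. The nasal placode list, with Pax6 the highest of 6, had none 2-fold apart and a summed 55.2 and 51.7 TPM in replicates 2 and 1.

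**Figure D3:**
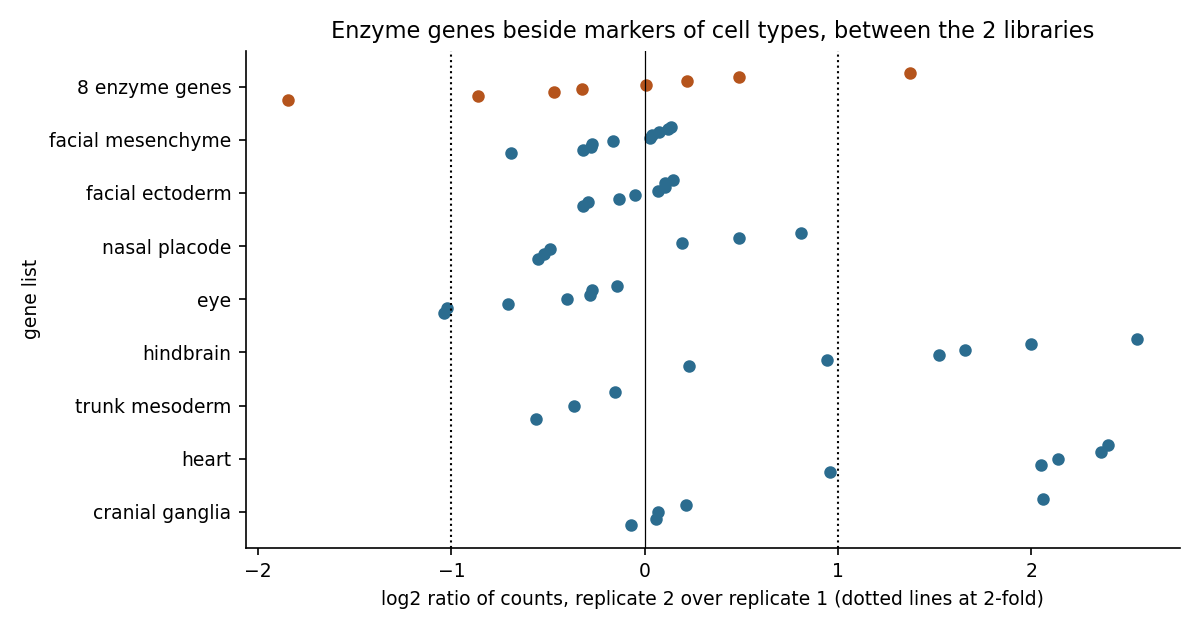
Log2 ratio of counts of replicate 2 over replicate 1 for the 8 enzyme genes and for markers of 8 cell types whose mean count reached 50, 1 point per gene, with dotted lines at 2-fold. All 7 eye markers lie left of 0, all 6 hindbrain markers and the 5 heart markers shown right of it, and facial mesenchyme and ectoderm markers lie on both sides.

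Transcripts were then compared within each gene. Aldh1a1, Aldh1a2, Cyp26a1 and Cyp26c1 have 1 transcript each in the deposited tables, and the other 4 genes have 2 to 7. In Aldh1a3, the leading transcript Aldh1a3-201, with 1536 coding bases, held 65.7% of the gene's TPM in replicate 2 and 69.9% in replicate 1. Aldh1a3-203, annotated as protein coding with 528 coding bases, held 32.7% in replicate 2 and 28.9% in replicate 1. In Rdh10, the coding transcript Rdh10-201 held 93.6% in replicate 2 and 95.1% in replicate 1, and the rest fell to Rdh10-202, a retained intron. In both genes the shares moved by a few percentage points only.

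Dhrs3 was the most divided of the 4. Its leading transcript, Dhrs3-207, with 828 coding bases, held 37.0% in replicate 2 and 28.8% in replicate 1. Dhrs3-201, annotated as a target of nonsense-mediated decay, held 29.8% in replicate 2 and 26.7% in replicate 1. Dhrs3-206, with the longest coding sequence of 906 bases, held 18.0% in replicate 2 and 23.9% in replicate 1. Transcripts annotated as protein coding came to 64.7% of Dhrs3 in replicate 2 and 69.3% in replicate 1. The deposited bounds of Dhrs3-207 (4.48 to 8.12 TPM) and Dhrs3-201 (3.79 to 6.86 TPM) overlapped in replicate 2, and those of the same transcripts (4.56 to 8.98 TPM and 4.73 to 8.69 TPM) overlapped in replicate 1, so which of them leads was not settled within a library.

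In Cyp26b1 the split between 2 transcripts differed between the libraries. Cyp26b1-201 held 51.3% of the gene's TPM in replicate 2 and 15.1% in replicate 1, and Cyp26b1-202 held 48.8% in replicate 2 and 84.9% in replicate 1. In the M21 annotation both have 7 exons and the same coding sequence of 1536 bases, and they differ in a noncoding first exon that starts at position 84593746 of chromosome 6 for Cyp26b1-201 and at 84593908 for Cyp26b1-202. The quantified models were longer, at 4751 and 4700 bases against 4157 and 4170 in M21, so they may differ from each other elsewhere too. In TPM, Cyp26b1-201 had 6.42 in replicate 2 and 0.75 in replicate 1, while Cyp26b1-202 had 6.11 in replicate 2 and 4.21 in replicate 1. Within replicate 2 the bounds of the 2 transcripts overlapped, so which of them leads there was not settled, and within replicate 1 Cyp26b1-202 led. The bounds of Cyp26b1-201 did not overlap between the libraries (4.31 to 8.42 TPM in replicate 2, 0.0582 to 1.84 TPM in replicate 1), and those of Cyp26b1-202 did (3.83 to 7.99 TPM in replicate 2, 2.92 to 4.92 TPM in replicate 1). The posterior SD of either transcript's count was 132 in replicate 2 and 61.9 in replicate 1, whereas that of the gene's count was 0.

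**Figure D4:**
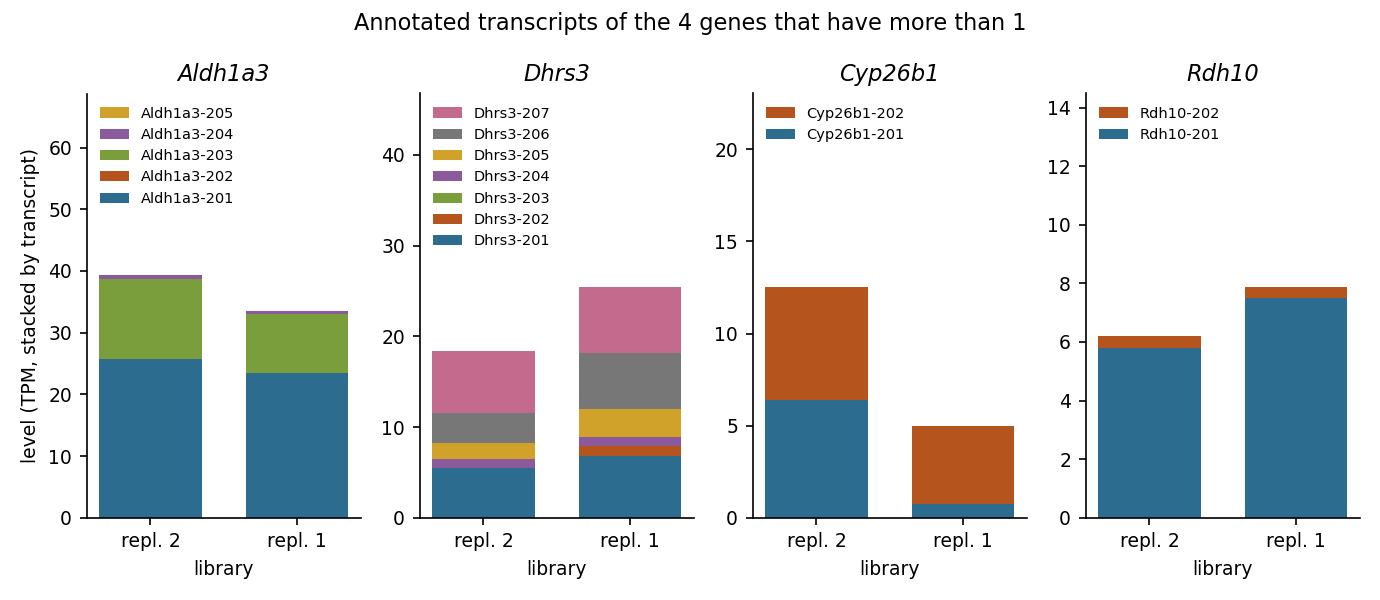
Level in TPM of each annotated transcript, stacked, for the 4 genes with more than 1 transcript, with replicate 2 left of replicate 1 and a separate linear axis from 0 for each gene. Cyp26b1-201 takes 6.42 TPM of the replicate 2 bar and 0.75 TPM of the replicate 1 bar, while Aldh1a3-201 leads in both libraries.

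The counts of Aldh1a1 were checked against its near copy Aldh1a7, which lies beside it on chromosome 19 with 49487 bases between. The coding sequences of Aldh1a1 and Aldh1a7 were identical at 1377 of 1503 aligned positions (91.6%). Of 1954 stretches of 100 bases in the Aldh1a1 transcript, 1 also occurred in Aldh1a7. Aldh1a7 had 2.37 TPM in replicate 2 and 3.03 TPM in replicate 1, and the posterior SD of the Aldh1a1 count was 0 and 0.19 in replicates 2 and 1. Of the 8 genes, the other with a shared stretch was Aldh1a3, with 1 of 4601, in Casc4. The 3 Aldh1a members were less alike, with identities of 67.9% for Aldh1a2 and Aldh1a3, 66.4% for Aldh1a1 and Aldh1a2 and 66.0% for Aldh1a1 and Aldh1a3. Cyp26b1 and Cyp26c1 were identical at 60.2% of aligned coding positions, Cyp26a1 and Cyp26b1 at 54.2%, and Cyp26a1 and Cyp26c1 at 52.7%. Genes that overlap members on the opposite strand were Gm6684, with 0 counts in both libraries, and C730002L08Rik for Aldh1a1, and Gm48124 for Aldh1a2. The quantified transcript Aldh1a1-201 starts at position 20601961, past the ends of both genes that overlap Aldh1a1. C730002L08Rik and Gm48124 were not analysed here. Use of the read strand in counting is not given in the sources used here.

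The stretches just before the annotated starts are shown for 3 genes, Cyp26a1 because its level was the steadiest, and Cyp26b1 and Aldh1a1 because they differed most between the libraries. Each sequence is from the RefSeq promoter table on GRCm38.p6 and is written in the direction of the gene. It ends at the last base before the first annotated start within 300 bases of its RefSeq start. Aldh1a1 has another RefSeq start at position 20492583, 109378 bases before the start of Aldh1a1-201. The window of that start held no half-site and is not shown. Capitals mark half-sites of the retinoic acid receptor, spelled AGGTCA or, in related forms, AGTTCA, with a further pair of spellings GGGTCA and, last, GGTTCA, all searched on both strands.
Cyp26a1 (chr19:37697558-37697797, plus strand): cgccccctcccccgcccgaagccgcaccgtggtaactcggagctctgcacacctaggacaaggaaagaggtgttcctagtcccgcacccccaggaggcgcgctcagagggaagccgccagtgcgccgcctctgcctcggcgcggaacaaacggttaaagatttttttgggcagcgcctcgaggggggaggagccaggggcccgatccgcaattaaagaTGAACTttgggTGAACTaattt
Cyp26b1 (chr6:84593909-84594060, minus strand): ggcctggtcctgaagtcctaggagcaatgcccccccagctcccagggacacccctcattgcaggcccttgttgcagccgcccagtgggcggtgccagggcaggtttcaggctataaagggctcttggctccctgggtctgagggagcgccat
Aldh1a1 (chr19:20601718-20601960, plus strand): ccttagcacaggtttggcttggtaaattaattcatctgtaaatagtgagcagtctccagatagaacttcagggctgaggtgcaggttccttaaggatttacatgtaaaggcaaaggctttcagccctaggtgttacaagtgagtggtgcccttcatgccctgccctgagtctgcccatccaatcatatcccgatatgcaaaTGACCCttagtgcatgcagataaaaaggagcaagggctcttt
The capitals in Cyp26a1 are 2 half-sites on the opposite strand that form a direct repeat with 5 bases between them, from 32 to 16 bases before the RefSeq start at position 37697808. Aldh1a1 held 1 half-site, from 49 to 44 bases before the RefSeq start at 20601968, and Cyp26b1 held none in its window. RefSeq windows of 300 bases were found for 6 of the 8 genes, 9 windows in all, and 1 of the 9 held such a repeat with 5 bases between. Of all 32851 windows of that length in the table, 0.0974% held one. A direct repeat with 2 or 1 bases between occurred in none of the 9 windows, against 0.268% and 0.222% of all windows. A half-site of any of the 4 spellings occurred in 2 of the 9 windows and in 43.7% of all windows. A match of letters is a description and not a measured site.

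The enzyme genes were set beside 50 other genes of the retinoid pathway, grouped in 6 lists by role, of which 29 were detected in both libraries. Over all protein coding genes the share detected was 58.2%, close to that of the 50 genes, and the counts per list are descriptions beside it. In retinol uptake and storage, 4 of 11 were detected, among them Dgat1, a triglyceride synthesis gene whose enzyme also esterifies retinol, at 51.7 ± 4.89 TPM and the retinol transporter gene Stra6 at 33.9 ± 8.30 TPM (SD, n = 2 each). Rbp4 was detected in replicate 2 alone, at 1.92 TPM against 0.83 TPM in replicate 1. Lrat, the main retinol esterifying enzyme, and Rpe65, the retinoid isomerase of the eye, were the lowest, at means of 0.04 and 0.025 TPM. Of 19 other oxidoreductases, 8 were detected, and Adh5 (216 TPM), Dhrs4 (50.6 TPM) and Rdh13 (30.3 TPM) had the highest mean levels, above Rdh10 at 7.04 TPM. Rdh12 was detected in replicate 2 alone, at 1.51 TPM against 0.89 TPM in replicate 1. Sdr16c5, Dhrs9, Rdh9 and Rdh16 had 0 counts in both libraries.

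All 9 binding proteins and receptors were detected. The cytoplasmic retinoic acid binding protein genes Crabp1 and Crabp2 had mean levels of 1219 ± 122 and 624 ± 62.7 TPM, and Fabp5, a fatty acid binding protein gene whose product also carries retinoic acid, had 430 ± 6.24 TPM (SD, n = 2 each), all above every enzyme gene in both libraries. The receptor genes Rxra at 7.61 TPM and Rxrg at 3.20 TPM were the lowest of the list. All 3 corepressor genes were detected, among them Ncor1 at a mean of 118 TPM and Nrip1 at 46.8 TPM. All 3 genes that pass electrons to P450 enzymes were detected as well, Cyb5a at 240, Cyb5r3 at 142 and Por at 84.5 TPM, each above the summed Cyp26 level. Of 8 known targets of retinoic acid outside the 8 enzymes, 5 were detected, with Crabp2 and Rarb among the highest and Cdx1 (0.30 TPM) and Stra8 (0.05 TPM) the lowest. Rarb, a receptor gene that retinoic acid induces, had 16.2 TPM in replicate 2 and 25.8 TPM in replicate 1. Hoxb1, a target in the hindbrain, had 5.91 TPM in replicate 2 and 1.03 TPM in replicate 1.

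**Figure D5:**
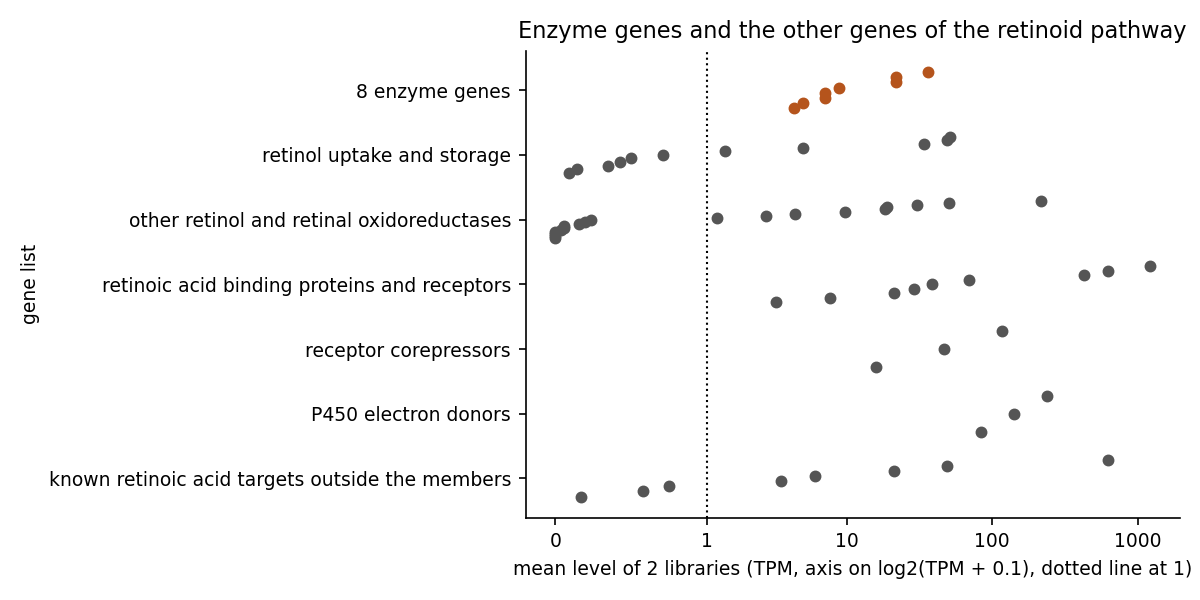
Mean level over both libraries of the 8 enzyme genes and of the other genes of the retinoid pathway by list, 1 point per gene, on an axis of log2(TPM + 0.1) with a dotted line at 1 TPM. The enzyme genes lie between 4.27 and 36.4 TPM, and the binding protein genes Crabp1, Crabp2 and Fabp5 lie between 430 and 1219 TPM.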

How the data were processed

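Expected counts, posterior mean counts, TPM and each transcript's percent of its gene were deposited by the authors per gene and transcript for each library, with bounds of the TPM whose level is not given in the sources used here. Per the file headers and accompanying notes, reads were placed on mm10 and quantified against GENCODE M4, with replicates kept apart. The aligner and quantifier are not given in the sources used here. Names and coordinates came from GENCODE M21 by identifier, and 42462 of 43346 genes had a symbol. The deposited lengths of Cyp26b1-201, Cyp26b1-202, Aldh1a3-201 and Cyp26a1-201 differ from those of M21.

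Expected counts were kept as deposited for ratios between the libraries, with TMM factors from edgeR 4.0.16 (R 4.3.3), a prior count of 2, and exact Clopper-Pearson 95% counting intervals. DESeq2 1.42.0 size factors were an alternative. With 1 group there was no contrast between conditions, and no p-value was computed. The interval of a pair was 1.96 SD over the square root of n = 2. Where the pair's own SD was used, it is a description narrower than the 1 degree of freedom allows. A multiplier of 12.7 on the pair's own SD was added after seeing the data. Coding sequences were aligned globally with Biopython 1.88 in place of proteins, a choice made after seeing the files. The steps were checked on simulated data. The 8 genes, the lists and the settings were chosen with earlier results of these data known. All 8 were named, with the 3 highest and 2 lowest of each pathway list, those detected in 1 library alone, genes that overlap a member, and the highest, lowest and 2-fold different markers. The values of 4 such list genes are left out here.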

Additional observations from a re-analysis of the deposited data

How the results depend on the processing

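With a threshold of 5 TPM, 4 of the 8 genes were detected, in place of 8. The share of all protein coding genes at 5 TPM was not computed. Each library alone, with the pooled SD, set 4 to 5 of the 7 neighbouring pairs apart, in place of 2. With both libraries the pooled SD alone gave 2 as well. The rule of the same sign in both libraries, which 5 of the 7 pairs broke, cannot be applied to 1 library. With the pair's own SD and the multiplier for 1 degree of freedom, chosen after seeing the data, 2 of 28 pairs and 0 of 7 neighbouring pairs lay apart, in place of 18 and 2, since the interval is wider. With transcripts of the longest coding sequence only, an alternative chosen after seeing the data, the log2 ratio of summed Aldh1a over summed Cyp26 was 0.077 in place of 0.49, since Aldh1a3-203 is then left out. Of 224 alternative values of pairwise log2 differences, 183 kept direction and call, 20 lost the call, 12 gained it and 9 reversed. Of these 9, 8 came from 1 library alone. The differences in single libraries ran between -0.22 and 0.22 for Dhrs3 over Cyp26a1, -0.66 and 1.00 for Cyp26b1 over Rdh10, -1.14 and 2.03 for Cyp26b1 over Aldh1a1, -0.36 and 1.84 for Cyp26b1 over Aldh1a2, -0.49 and 1.03 for Rdh10 over Aldh1a1, -0.20 and 0.78 for Aldh1a1 over Aldh1a2, -0.71 and 1.60 for Aldh1a1 over Cyp26c1, and -0.51 and 0.82 for Aldh1a2 over Cyp26c1. The other was Dhrs3 over Cyp26a1, at 0.025 with posterior mean TPM, where the cause was not tested. With expected counts the mean share of Cyp26a1 in its family was 45.6% in place of 63.5%, that of Cyp26b1 45.9% in place of 24.2% and that of Cyp26c1 8.53% in place of 12.3%. Of 40 alternative values of the replicate ratios, 39 kept their side of 2-fold. No paired analysis was possible because there was 1 group. Depth limits Cyp26c1 and Aldh1a1 most, with as few as 157 and 154 counts in a library.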
